A study of Mus musculus with 8 samples.

Results

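Neutrophils are made from myeloid precursors in the bone marrow, and in mice also in the spleen. At the promyelocyte stage these precursors fill the primary, or azurophil, granules with myeloperoxidase and a family of serine proteases. Transcription of these genes stops as the cells mature, so their mRNA marks granulocyte precursors, whereas the genes of secondary granules and of mature neutrophils are switched on later.

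The 8 genes described here were chosen by name as azurophil granule proteins and factors of early granulocyte precursors, from 52636 genes in the count table, and all 8 passed the filter on low counts. Mpo, Elane, Prtn3 and Ctsg encode azurophil granule proteins, Ms4a3 and Fcnb encode a membrane protein and a secreted lectin of precursor cells, and Cebpe and Gfi1 encode transcription factors of granulocyte differentiation. RNA of whole spleens was sequenced from C57BL/6 mice aged 6 weeks, with 2 libraries in each of 4 groups. Irradiated Lmna R527C mutants and irradiated wild type mice were sampled at day 7 after 4 Gy, and unirradiated Lmna R527C mutants and unirradiated wild type mice were sampled at day 0. Lmna encodes the A-type lamins of the nuclear envelope. The sources used here do not say whether the mutants carried 1 or 2 mutant alleles, and counts per gene do not show the substitution. Nothing in the labels says that the libraries of a group came from separate mice, so every p-value below reflects the spread between these libraries alone, part of which may be technical.

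Library totals ran from 12100784 to 19455470 counts. The 8 genes together held 0.0603% and 0.160% of all counts in unirradiated mutants and 0.0249% and 0.0203% in unirradiated wild type mice. In irradiated spleens their share was 0.00106% and 0.00316% in mutants and 0.000359% and 0.000909% in wild type mice. A floor of 3 counts, which is the upper limit left by a count of 0, stood for 0.131 to 0.350 CPM (read counts scaled to a common library size by TMM). Floors and intervals cover counting error only. Replicates were closer in unirradiated than in irradiated groups, with correlations of log2 CPM across genes of 0.988 in unirradiated mutants, 0.982 in unirradiated wild type, 0.877 in irradiated mutants and 0.942 in irradiated wild type. The irradiated mutant libraries stood furthest apart, with erythroblast markers summing to 18842 CPM in replicate 1 and 1517 CPM in replicate 2. Of sex-linked genes, Ddx3y, Eif2s3y, Kdm5d and Uty on the Y chromosome were at 0 counts in all 4 irradiated libraries, which held 1029 to 1776 CPM of Xist. All 4 unirradiated libraries expressed these Y-linked genes and held at most 0.262 CPM of Xist. Irradiation, day of sampling and sex-linked expression therefore cannot be told apart in any comparison of irradiated with unirradiated spleens. Comparisons of mutant with wild type were made within each of these sets.

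Of the 8 genes, Elane and Prtn3 are neighbours on chromosome 10. In GRCm38 coordinates Prtn3 spans chr10:79874476-79883174 and Elane chr10:79886247-79888215, both on the plus strand. Mpo lies at chr11:87793581-87804413 on the plus strand. Ctsg (chr14:56099881-56102574), Cebpe (chr14:54710360-54712174), Ms4a3 (chr19:11629496-11640851), Fcnb (chr2:28076378-28084885) and Gfi1 (chr5:107716657-107726036) lie on the minus strand. Prtn3 overlaps Plppr3 on the opposite strand, which held 64 and 158 counts in irradiated mutants, 44 and 75 in irradiated wild type, 270 and 515 in unirradiated mutants and 228 and 96 in unirradiated wild type. Gfi1 overlaps the noncoding A430072P03Rik, which held 0 to 35 counts, and Mpo overlaps the antisense Gm11505, with 0 or 1 count. The sources used here do not give the strand setting of the counting, so reads of each overlapping pair cannot be told apart. These overlapping genes were named after their values were seen.

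Upstream sequence was available for 7 of the 8 genes in RefSeq (GRCm38.p6), as the 250 bases before each annotated start. The letters GAGGAA, a core recognised by the myeloid factor PU.1, occurred on either strand in the windows of all 4 azurophil genes and in none of the others, and in 23.3% of all 32851 windows. The stretches that hold these letters are shown because all 4 granule genes share them, with GAGGAA in capitals and bases in annotated exons left out. The Prtn3 stretch lies between exons within the gene's annotated span, and the other 3 lie directly before their genes. They are chr10:79886062-79886246 (plus) for Elane, chr10:79879417-79879613 (plus) for Prtn3, chr11:87793534-87793580 (plus) for Mpo and chr14:56102575-56102824 (minus) for Ctsg.
Elane: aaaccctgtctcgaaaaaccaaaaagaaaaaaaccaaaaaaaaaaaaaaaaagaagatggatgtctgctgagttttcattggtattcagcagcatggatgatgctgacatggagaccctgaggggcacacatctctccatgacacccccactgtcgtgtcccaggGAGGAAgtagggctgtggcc
Prtn3: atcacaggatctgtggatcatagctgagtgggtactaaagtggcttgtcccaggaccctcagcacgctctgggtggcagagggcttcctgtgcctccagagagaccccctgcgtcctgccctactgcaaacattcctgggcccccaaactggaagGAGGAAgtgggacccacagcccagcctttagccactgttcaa
Mpo: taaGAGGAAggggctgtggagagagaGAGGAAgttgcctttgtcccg
Ctsg: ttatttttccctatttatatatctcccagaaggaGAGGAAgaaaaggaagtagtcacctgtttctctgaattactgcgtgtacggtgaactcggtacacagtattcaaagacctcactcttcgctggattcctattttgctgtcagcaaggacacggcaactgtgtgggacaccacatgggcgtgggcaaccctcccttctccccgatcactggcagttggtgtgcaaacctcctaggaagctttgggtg
The letters TTNNGCAA, a form of the site bound by C/EBP factors, were found only in the windows of Fcnb and Gfi1 among these genes, and in 9.56% of all windows. Fcnb held them at 2 places, in capitals in this stretch of chr2:28084886-28085128 (minus).
Fcnb: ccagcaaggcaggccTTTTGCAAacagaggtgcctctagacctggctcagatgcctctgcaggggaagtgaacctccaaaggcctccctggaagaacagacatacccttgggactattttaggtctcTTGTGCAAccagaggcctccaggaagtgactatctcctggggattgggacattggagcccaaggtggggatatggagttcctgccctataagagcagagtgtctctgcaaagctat
AACTG, a core of the MYB site, occurred in 4 of the 7 genes and in 39.1% of windows, TGTGGT, a core of the RUNX site, in 1 gene and 14% of windows, and AATCAC, a core of the GFI1 site, in 0 genes and 9.14% of windows. Matches of different motifs overlap only in Gfi1, where a TTNNGCAA and an AACTG match share bases, and a match is a description of letters, not a bound site.

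In unirradiated spleens all 8 genes were higher in both Lmna R527C mutants than in both wild type mice. The ratio of mean CPM was 3.30 to 5.74 for 7 of the genes and 1.82 for Gfi1. Mutant replicate 2 was 1.67 to 3.15 times replicate 1, and wild type replicate 2 was 0.715 to 0.954 times replicate 1.

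Myeloperoxidase, encoded by Mpo, makes hypochlorous acid from hydrogen peroxide. Mpo had 133 and 402 CPM in unirradiated mutants, against 53.6 and 47.4 CPM in unirradiated wild type mice. Elane, which encodes neutrophil elastase, had 88.9 and 248 CPM in mutants, against 44.2 and 39.0 CPM in wild type. Prtn3, which encodes proteinase 3, had 129.5 and 408 CPM in mutants, against 49.6 and 47.4 CPM in wild type. For all 3 genes the lower mutant library was at least 2.01 times the higher wild type library. Ctsg, which encodes the chymotrypsin-like protease cathepsin G, had 59.2 and 134 CPM in mutants, against 19.5 and 17.3 CPM in wild type.

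Ms4a3 encodes a 4-span membrane protein that in mice marks granulocyte and monocyte progenitors. It had 34.2 and 79.6 CPM in unirradiated mutants, against 10.2 and 9.61 CPM in unirradiated wild type mice. The gap between the groups was the widest of the 8 genes, with the lower mutant library 3.35 times the higher wild type one. Fcnb encodes ficolin B, a lectin that binds microbial sugars, and had 27.2 and 57.8 CPM in mutants, against 14.2 and 11.5 CPM in wild type. Cebpe encodes C/EBP epsilon, which is needed for the later steps of granulocyte maturation, and had 19.5 and 49.1 CPM in mutants, against 7.69 and 5.50 CPM in wild type. The groups did not overlap for either gene. Gfi1, which encodes a zinc-finger repressor used by granulocyte precursors and also by stem cells and lymphocytes, had 17.9 and 29.9 CPM in mutants, against 14.2 and 11.95 CPM in wild type. Its groups lay closest together, 1.26 times apart.

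**Figure D1:**
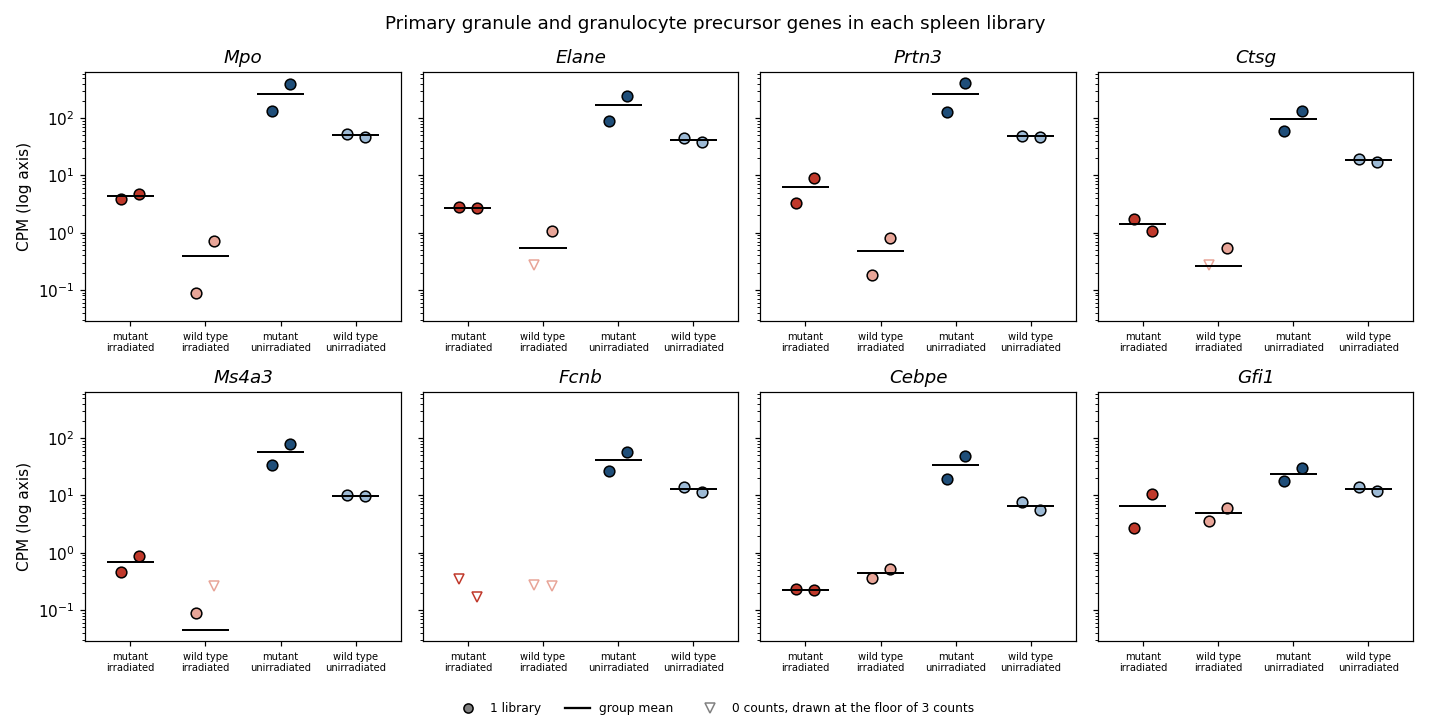
Level of the 8 genes in each library, in CPM on a log axis, with 1 panel per gene and the groups from left to right irradiated mutant, irradiated wild type, unirradiated mutant and unirradiated wild type. Points are libraries, lines are group means, and open triangles are libraries with 0 counts, drawn at the floor of 3 counts. Unirradiated mutants lie above unirradiated wild type in every panel, and irradiated spleens lie lowest, with Fcnb at 0 counts in all 4 irradiated libraries.

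The test with edgeR on all 8 libraries called 0 of the 8 genes between unirradiated mutants and wild type, and 0% of all 17327 genes tested as higher. Log2 fold changes in this fit were 2.40 ± 0.62 for Mpo, 2.02 ± 0.74 for Elane, 2.47 ± 0.69 for Prtn3 and 2.39 ± 0.63 for Ctsg (± SE, n = 2 per group). They were 2.52 ± 0.51 for Ms4a3, 1.72 ± 0.47 for Fcnb, 2.37 ± 0.49 for Cebpe and 0.87 ± 0.60 for Gfi1. Adjusted p-values in edgeR ran from 0.943 to 1. The median over the 8 genes was 2.38, beside -0.02 over all genes tested. At an unadjusted p under 0.05, 7 of the 8 genes passed, all but Gfi1, against 1.8% of all genes in the higher direction. The groups of all 8 genes did not overlap, as was so in the higher direction for 20.8% of genes tested.

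The number called differed between fits. With edgeR fitted on the 4 unirradiated libraries alone, 7 of the 8 genes rose in mutants and Gfi1 did not pass, where 2.27% of genes tested rose. In this fit the log2 fold change was 2.43 ± 0.40 for Mpo (adjusted p = 0.00972), 2.49 ± 0.41 for Prtn3 (0.00967), 2.42 ± 0.32 for Ctsg (0.00319) and 2.54 ± 0.33 for Ms4a3 (0.00320). Elane followed at 2.04 ± 0.37 (adjusted p = 0.0159 in edgeR), Fcnb at 1.74 ± 0.31 (0.0143) and Cebpe at 2.39 ± 0.38 (0.00813). Gfi1 was at 0.89 ± 0.25 (adjusted p = 0.105 in edgeR). DESeq2 on all libraries called 4 genes, Mpo, Ctsg, Ms4a3 and Cebpe, where it called 0.335% of genes as higher. Limma-voom called 0 of the 8 (0% of genes), limma-voom with library weights called 7 (1.89% of genes higher), and edgeR without the filter on low counts called 7 (0.434% of genes higher). With 1 unirradiated library left out in turn, the edgeR fit on the unirradiated libraries called 7 or 8 of the 8 genes. It called 8 without mutant replicate 1 (2.64% of genes in either direction) and 7 without the higher mutant replicate 2 (1.99%), where the lone mutant library is assumed to vary like the wild type ones. It called 8 without wild type replicate 1 (11.4%) and 7 without wild type replicate 2 (3.75%). The size of the difference moved more: without mutant replicate 2 the log2 fold changes in the fit of all libraries ran from 0.45 for Gfi1 to 1.79 for Ms4a3, and without mutant replicate 1 from 1.19 for Gfi1 to 3.07 for Prtn3.

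**Figure D2:**
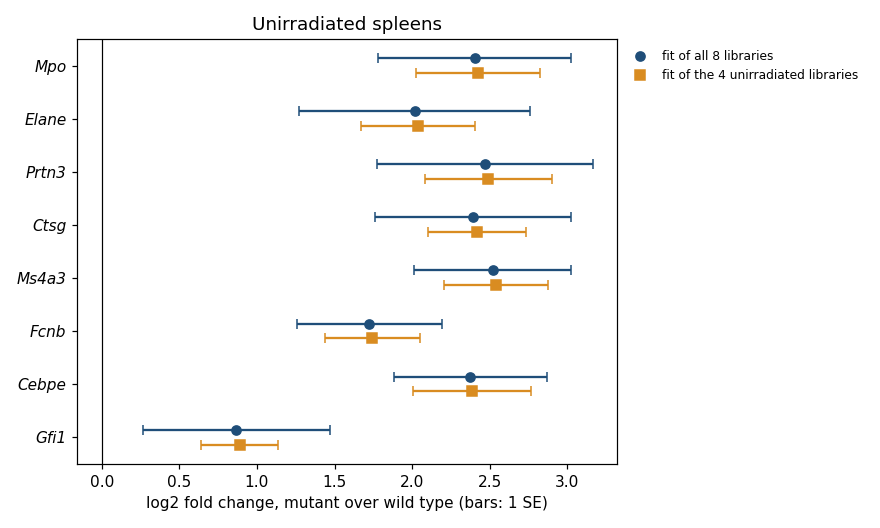
Log2 fold change of each gene, unirradiated mutant over unirradiated wild type, with bars of 1 SE, in the edgeR fit of all 8 libraries and in the fit of the 4 unirradiated libraries. The estimates are nearly equal in both fits, from 0.87 for Gfi1 to 2.52 for Ms4a3 in the fit of all libraries, and the bars are narrower in the fit of the unirradiated libraries.

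Within unirradiated spleens the 8 genes kept much the same order per length of transcript. Elane was highest, followed by Prtn3, Ctsg, Mpo and Fcnb, in all 4 unirradiated libraries. Mean RPKM (CPM per kilobase of exons) was 171 ± 114 for Elane in mutants, against 42.3 ± 3.71 in wild type (SD, n = 2 each). Prtn3 averaged 155 ± 114 RPKM in mutants, against 28.0 ± 0.923 in wild type, and Ctsg 93.7 ± 51.5 against 17.8 ± 1.54. In mutants the spread of these neighbours overlaps widely, while their order was the same in both libraries. Mpo averaged 78.1 ± 55.7 RPKM in mutants, against 14.8 ± 1.28 in wild type, and Fcnb 31.7 ± 16.2 against 9.60 ± 1.42. Ms4a3 averaged 30.2 ± 17.0 RPKM in mutants, against 5.26 ± 0.220 in wild type, and Cebpe 27.6 ± 16.9 against 5.32 ± 1.25. These 2 genes do not differ beyond their spread in either group. Gfi1 was lowest, at 7.50 ± 2.65 RPKM in mutants, against 4.11 ± 0.508 in wild type.

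Ratios of counts within a library do not depend on the scaling between libraries. The ratio of Prtn3 to Mpo was 0.976 and 1.01 in unirradiated mutants, against 0.925 and 0.999 in wild type, near 1 in all 4 libraries. Elane was lower relative to Mpo in both mutants, at 0.670 (95% exact interval 0.633 to 0.709) and 0.616 (0.595 to 0.637), against 0.824 (0.757 to 0.896) and 0.823 (0.738 to 0.916) in wild type. Fcnb relative to Mpo was 0.205 and 0.144 in mutants, against 0.265 and 0.243 in wild type. Gfi1 relative to Mpo was 0.135 and 0.0743 in mutants, against 0.266 and 0.252 in wild type. For Elane, Fcnb and Gfi1 both mutant libraries lay below both wild type libraries, and with 2 libraries a group no exact test over samples can pass the threshold. Mpo itself was 5.29 times higher in mutants by mean CPM, so genes that rose less than Mpo have lower ratios to it. How many of all genes show such a lower ratio was not computed. The other ratios to Mpo overlapped between the genotypes. Ctsg was at 0.446 and 0.334 in mutants, against 0.364 and 0.364 in wild type. Ms4a3 was at 0.258 and 0.198 in mutants, against 0.190 and 0.203 in wild type. Cebpe was at 0.147 and 0.122 in mutants, against 0.143 and 0.116 in wild type.

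Irradiated spleens at day 7 held few transcripts of these genes. Fcnb had 0 counts in all 4 irradiated libraries, and the azurophil genes were 43.3 to 69.0 times lower in mutants and 69.4 to 127 times lower in wild type by the ratio of mean CPM. Ms4a3 was 84.1 times lower in mutants. Cebpe was 151 times lower in mutants and 14.8 times lower in wild type. Gfi1 kept the most, 3.59 times lower in mutants and 2.70 times lower in wild type. In whole spleens, fewer cells of a type and less RNA per cell cannot be told apart.

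Mpo had 3.85 and 4.76 CPM in irradiated mutants (33 and 86 counts) and 0.0901 and 0.706 CPM in irradiated wild type (1 and 8 counts). Elane had 2.80 and 2.66 CPM in irradiated mutants (24 and 48 counts) and 0 and 1.06 CPM in irradiated wild type (0 and 12 counts). Prtn3 had 3.27 and 9.13 CPM in irradiated mutants (28 and 165 counts) and 0.180 and 0.795 CPM in irradiated wild type (2 and 9 counts). All of these values were far below the unirradiated libraries of the same genotype, and wild type replicate 1 was at or near 0 for every azurophil gene. Ctsg had 1.75 and 1.05 CPM in irradiated mutants (15 and 19 counts) and 0 and 0.530 CPM in irradiated wild type (0 and 6 counts).

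Ms4a3 had 0.467 and 0.886 CPM in irradiated mutants (4 and 16 counts) and 0.0901 and 0 CPM in irradiated wild type (1 and 0 counts). Cebpe had 0.234 and 0.221 CPM in irradiated mutants (2 and 4 counts) and 0.361 and 0.530 CPM in irradiated wild type (4 and 6 counts). Both genes held at most 16 counts in each irradiated library. Gfi1 had 2.69 and 10.6 CPM in irradiated mutants (23 and 192 counts) and 3.61 and 6.09 CPM in irradiated wild type (40 and 69 counts). It made up 17.8% and 36.2% of the counts of the 8 genes in irradiated mutants and 83.3% and 62.7% in irradiated wild type. In unirradiated spleens its share was 3.52% and 2.12% in mutants and 6.68% and 6.30% in wild type. Per length, Prtn3, Elane and Gfi1 led the order of means in irradiated mutants, at 3.58 ± 2.39, 2.77 ± 0.105 and 2.09 ± 1.76 RPKM (SD, n = 2), and these do not differ beyond their spread. The order differed between the libraries, with Gfi1 at 3.34 RPKM in mutant replicate 2. In mutant replicate 1 it was at 0.843 RPKM, below Ctsg at 1.70 and Mpo at 1.13. Gfi1 led in irradiated wild type, at 1.52 ± 0.552 RPKM, ahead of Elane at 0.538 ± 0.762 RPKM.

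In mutants, edgeR on all 8 libraries called 7 of the 8 genes as lower after irradiation, all but Gfi1, where it called 0.346% of all genes tested as lower. The log2 fold change was -5.95 ± 0.74 for Mpo (adjusted p = 0.0270), -5.95 ± 0.91 for Elane (0.0396), -5.41 ± 0.80 for Prtn3 (0.0370) and -6.15 ± 0.78 for Ctsg (0.0284). Ms4a3 fell by 6.30 ± 0.63 on the log2 scale (adjusted p = 0.0161 in edgeR) and Cebpe fell by 7.20 ± 0.68 (0.0152). Fcnb was at least 121-fold lower, taking the highest floor of 3 counts per library for the irradiated group (adjusted p = 0.0189 in edgeR). Gfi1 was at -1.82 ± 0.62 (adjusted p = 0.159 in edgeR). The median over the 8 genes was -6.05 with Fcnb at its bound, beside 0.15 over all genes. At an unadjusted p under 0.05 all 8 genes were lower, against 8.7% of genes, and the groups of all 8 did not overlap, as was so in the lower direction for 25.7% of genes.

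The number called in mutants depended on the fit and on single libraries. DESeq2 called 8 of the 8 genes (5.02% of genes lower), edgeR without the filter on low counts 8 (3.13%), limma-voom 7 (0.358%) and its form with library weights 0 (0.104%). Upper-quartile scaling in edgeR called 5, leaving out Elane and Prtn3 (0.41% of genes in either direction, against 0.6% with the scaling used throughout). EdgeR on the 4 mutant libraries alone called 0 of the 8 and 0% of genes. With 1 of these libraries left out it called 5 without unirradiated replicate 1 (0.0562% of genes in either direction) and 0 without unirradiated replicate 2 (0.0279%). It called 8 without irradiated replicate 1, where 42.9% of all genes were called, and 8 without irradiated replicate 2, where 54.1% were. In the fit of all libraries the number of the 8 genes called fell when any 1 unirradiated library was left out, and so did the share of all genes called. It was 7 without irradiated mutant replicate 1 (6.89%), 8 without irradiated mutant replicate 2 (24.6%), and 6 without either irradiated wild type library (0.292% and 0.288%). Sizes moved as well: without unirradiated mutant replicate 2 the log2 fold change was -4.95 for Mpo and -4.38 for Prtn3, and without irradiated mutant replicate 2 it was -6.26 for Mpo and -6.50 for Prtn3.

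In wild type mice, edgeR on all 8 libraries called 1 of the 8 genes as lower after irradiation, Ms4a3, where it called 0.0462% of genes. Ms4a3 fell by 7.57 ± 0.86 on the log2 scale (adjusted p = 0.0416 in edgeR), with 1 count in the 2 irradiated libraries against 384 in the unirradiated ones. Per summed TMM-scaled library size this was a ratio of 223 (95% exact interval 39.8 to 8841). The log2 fold change was -6.95 ± 0.84 for Mpo (adjusted p = 0.0600 in edgeR), -6.27 ± 0.99 for Elane (0.0907), -6.61 ± 0.91 for Prtn3 (0.0729) and -6.07 ± 0.87 for Ctsg (0.0729). Fcnb was at least 47.5-fold lower (adjusted p = 0.0706 in edgeR), Cebpe was at -3.87 ± 0.60 (0.0883) and Gfi1 at -1.43 ± 0.62 (0.291). The median over the 8 genes was -6.17 with Fcnb at its bound, beside 0.09 over all genes. At an unadjusted p under 0.05, 7 of the 8 were lower, against 8.57% of genes, and the groups of all 8 did not overlap, as was so in the lower direction for 27.8% of genes.

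With edgeR on the 4 wild type libraries alone, 7 of the 8 genes fell, all but Gfi1, where 3.34% of genes fell, with adjusted p-values from 0.00174 for Prtn3 to 0.0142 for Cebpe. DESeq2 called 7 (3.95% of genes lower), edgeR without the filter on low counts 8 (2.69%), limma-voom 0 (0.0173%) and its form with library weights 0 (1.16%). In the fit of all libraries the number of the 8 genes called fell without unirradiated mutant replicate 1 or any 1 of the 4 wild type libraries. The share of all genes called fell as well. The number of the 8 rose without either irradiated mutant library, and so did the share of all genes. It did not change without unirradiated mutant replicate 2, but the gene was then Mpo and the share of all genes called fell. On the 4 wild type libraries it was 2 (Mpo and Prtn3) without either unirradiated library (0.0482% and 0.0534% of genes in either direction). It was 8 without irradiated replicate 1, where 27.2% of all genes were called, and 8 without irradiated replicate 2, where 41.7% were. Sizes rested on single irradiated libraries. Without irradiated wild type replicate 1 the fit of all libraries gave -6.16 for Mpo, -5.30 for Elane, -5.94 for Prtn3 and -5.12 for Ctsg, and Ms4a3 then had 0 counts in irradiated wild type. Without irradiated wild type replicate 2 it gave -9.03 for Mpo, -8.03 for Prtn3 and -6.69 for Ms4a3, and Elane and Ctsg then had 0 counts.

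**Figure D3:**
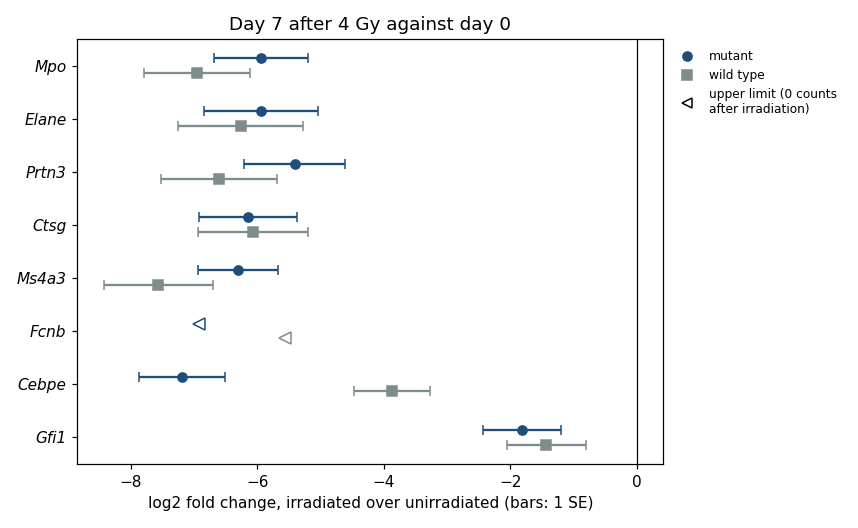
Log2 fold change of each gene, irradiated over unirradiated, in mutants and in wild type, with bars of 1 SE from the edgeR fit of all 8 libraries. Fcnb, at 0 counts in every irradiated library, is drawn at its bound of -6.92 in mutants and -5.57 in wild type. Gfi1 lies nearest to 0 in both genotypes, and Cebpe is at -7.20 in mutants and -3.87 in wild type.

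Among irradiated spleens, mutants held more transcripts of the azurophil genes and of Ms4a3 than wild type, at low counts. Both mutant libraries lay above both wild type libraries for Mpo, Elane, Prtn3, Ctsg and Ms4a3, as was so for 10.4% of all genes tested. Cebpe lay lower in both mutants, as did 7.46% of genes, and the groups overlapped for Gfi1. The ratio of summed counts per summed TMM-scaled library size was 11.1 for Mpo (95% exact interval 5.67 to 24.9), 14.8 for Prtn3 (8.07 to 30.1), 5.05 for Elane (2.72 to 10.2) and 4.77 for Ctsg (1.98 to 13.9). Ms4a3, with 20 counts in mutants and 1 in wild type, gave a ratio of 16.8 (2.69 to 698), and Cebpe, with 6 counts in mutants and 10 in wild type, gave 0.505 (0.151 to 1.53).

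EdgeR on all 8 libraries called 0 of the 8 genes between irradiated mutants and irradiated wild type, and 0% of all genes as higher. Log2 fold changes were 3.41 ± 0.81 for Mpo, 2.34 ± 0.97 for Elane, 3.67 ± 0.87 for Prtn3, 2.31 ± 0.94 for Ctsg and 3.79 ± 1.05 for Ms4a3. Cebpe was at -0.96 ± 0.77 and Gfi1 at 0.48 ± 0.62, and Fcnb had no count in either group. The smallest adjusted p in edgeR was 0.953. At an unadjusted p under 0.05, 5 genes were higher, Mpo, Elane, Prtn3, Ctsg and Ms4a3, against 3.36% of genes. The median was 2.32 over the 8 genes, with Fcnb at 0, beside 0.02 over all genes. DESeq2 called 2 genes, Prtn3 and Mpo (0.404% of genes higher), and edgeR without the filter on low counts called 4, Mpo, Elane, Prtn3 and Ms4a3 (0.522%). Limma-voom, with and without weights per library, and edgeR on the 4 irradiated libraries alone, where 5 of the 8 genes passed the filter, each called 0 genes of the group and 0% of genes higher. Without irradiated mutant replicate 1, log2 fold changes in the fit of all libraries ran from -0.95 to 4.24 over the 7 genes with a value. Without irradiated mutant replicate 2, Gfi1 turned to -0.91 and Prtn3 was at 2.66. Without irradiated wild type replicate 1 the log2 fold change was 2.60 for Mpo, 1.35 for Elane, 2.97 for Prtn3 and 1.34 for Ctsg. Without irradiated wild type replicate 2 it was 5.47 for Mpo, 5.07 for Prtn3 and 2.89 for Ms4a3.

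The genotypes were also compared in how far each gene differed after irradiation (interaction). EdgeR called 0 of the 8 genes and 0% of genes tested, DESeq2 0 of the 8 (0.0231% of genes), limma-voom 0 with and without library weights, and edgeR without the filter on low counts 0 of the 8 (0.176%). At an unadjusted p under 0.05 in edgeR, Cebpe alone passed, with a difference of -3.33 ± 0.91 on the log2 scale (unadjusted p = 0.00655, adjusted p = 1), against 0.508% of genes in that direction. The difference was 1.01 ± 1.0 for Mpo, 0.32 ± 1.17 for Elane, 1.20 ± 1.08 for Prtn3 and 1.27 ± 1.22 for Ms4a3. Ctsg was at -0.08 ± 1.90, with an SE of 1.04 in DESeq2, and Gfi1 was at -0.38 ± 0.86. The signs for Elane, Ctsg and Gfi1 turned when 1 library was left out. The irradiated side of the Cebpe difference rests on 6 counts in mutants and 10 in wild type.

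Genes of later granulocyte stages were also higher in unirradiated mutants. The secondary granule list (Camp, Ngp, Ltf, Lcn2, Chil3, Cd177, Itgb2l, Hp, Orm1 and Cybb) had 2.37 as its median log2 fold change and the mature neutrophil list had 2.31, beside -0.02 over all genes. All 10 and all 14 genes of these lists were above 0. EdgeR on all 8 libraries called 0 genes of either list and 0% of all genes as higher. On the 4 unirradiated libraries 9 of the 10 and 11 of the 14 rose, where 2.27% of all genes tested rose. Ngp, a secondary granule protein of mice, had 958 and 2067 CPM in mutants, against 334 and 249.6 CPM in wild type. S100a9, a calcium-binding protein abundant in mature neutrophils, had 2282 and 4031 CPM in mutants, against 578 and 513 CPM in wild type. Mutant replicate 2 was again the highest library for both genes. The summed azurophil genes (Mpo, Elane, Prtn3 and Ctsg) were 0.182 and 0.241 times the summed secondary granule genes Camp, Ngp, Ltf and Lcn2 in mutants, against 0.208 and 0.234 times in wild type. These ratios overlap.

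For other components of azurophil granules the median lay nearer to 0 in unirradiated spleens. This list also holds enzymes and a proteoglycan that many other cells express, and its 10 tested genes had a median log2 fold change of 0.17, with 9 above 0 and 0 called in either edgeR fit. Ctsc, the protease that activates the granule serine proteases, had 201 and 202 CPM in mutants, against 164 and 185 CPM in wild type. Srgn, the proteoglycan that packs them, had 255 and 268 CPM in mutants, against 201 and 273 CPM in wild type. Lyz2, lysozyme, had 1666 and 1807 CPM in mutants, against 1301 and 1634 CPM in wild type. Of these 3, the groups overlapped only for Srgn. Slpi, an inhibitor of leukocyte proteases named after its values were seen, had 116 and 219.8 CPM in mutants, against 42.2 and 84.4 CPM in wild type (log2 fold change 1.44 ± 0.33, adjusted p = 0.0520 in edgeR on the 4 libraries).

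Of the regulators of granulocyte production, the 14 tested genes had a median log2 fold change of 0.27, with 10 above 0, and 2 of them, the cytokine receptor genes Csf3r and Csf2rb, rose in the fit of the unirradiated libraries. Spi1, which encodes PU.1, had 97.6 and 134 CPM in unirradiated mutants, against 90.3 and 105 CPM in wild type. Irf8, a factor that favours monocytes over granulocytes, had 249.8 and 266 CPM in mutants, against 279 and 299 CPM in wild type. Csf3r, the receptor for G-CSF, had 69.4 and 82.0 CPM in mutants, against 28.3 and 24.4 CPM in wild type (log2 fold change 1.55 ± 0.16, adjusted p = 0.00108 in edgeR on the 4 libraries).

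The other genes of granulocyte precursors had a median of 0.71, with 9 of 11 above 0 and 5 that rose in the fit of the unirradiated libraries, Prss57, Igsf6, Hp, Anxa1 and Clec12a. Anxa1 had 276 and 394 CPM in mutants, against 75.1 and 64.9 CPM in wild type. Prss57, named after its values were seen, encodes another azurophil serine protease, and had 5.15 and 14.4 CPM in mutants, against 2.42 and 1.96 CPM in wild type (log2 fold change 2.17 ± 0.44, adjusted p = 0.0264 in edgeR on the 4 libraries). Plac8 had 419 and 509 CPM in mutants, against 247 and 379 CPM in wild type, and did not pass (adjusted p = 0.228 in edgeR on the 4 libraries).

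After irradiation the secondary granule list had a median of -6.02 in mutants and -4.27 in wild type, with all 10 genes below 0 in both. In mutants edgeR on all 8 libraries called 4 of these 10 as lower (Camp, Ngp, Ltf and Cd177) and 4 of the 14 mature neutrophil genes (Mmp8, Mmp9, S100a8 and S100a9). It called 0.346% of all genes as lower there. In wild type the same fit called 0 of either list and 0.0462% of all genes as lower. On the 4 wild type libraries 8 of the 10 and 3 of the 14 fell, where 3.34% of all genes fell. Ngp had 4.79 and 2.16 CPM in irradiated mutants and 13.2 and 3.71 CPM in irradiated wild type. S100a9 had 93.4 and 86.7 CPM in irradiated mutants and 96.2 and 44.5 CPM in irradiated wild type. The median of the mature neutrophil list was -1.63 in mutants and -0.72 in wild type. Regulators of granulocyte production had medians of 0.12 in mutants and 0.06 in wild type, beside 0.15 and 0.09 over all genes, with 7 of the 14 above 0 in mutants and 8 in wild type and 0 called in the fit of all libraries. On the 4 wild type libraries 2 of them, named after their values were seen, rose in edgeR, Cebpb (log2 fold change 1.36 ± 0.29, adjusted p = 0.0321) and Cebpd (1.52 ± 0.31, 0.0296). In that fit 3.62% of all genes tested rose. DESeq2 on all libraries called the same 2 genes as higher in wild type (adjusted p = 0.0149 for Cebpb and 0.00398 for Cebpd), and in mutants it called Csf3r (-1.65 ± 0.38, 0.000691) and Spi1 (-1.43 ± 0.51, 0.0467) as lower. It called 2.61% of all genes as higher in wild type and 5.02% as lower in mutants. Between irradiated mutants and irradiated wild type, the secondary granule list had a median of 0.38 and the mature neutrophil list one of 0.76. EdgeR on all 8 libraries and on the 4 irradiated libraries called 0 genes of either list. DESeq2 called 2 of the 10 secondary granule genes as higher and 0 of the 14 mature neutrophil genes, where it called 0.404% of all genes as higher.

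**Figure D4:**
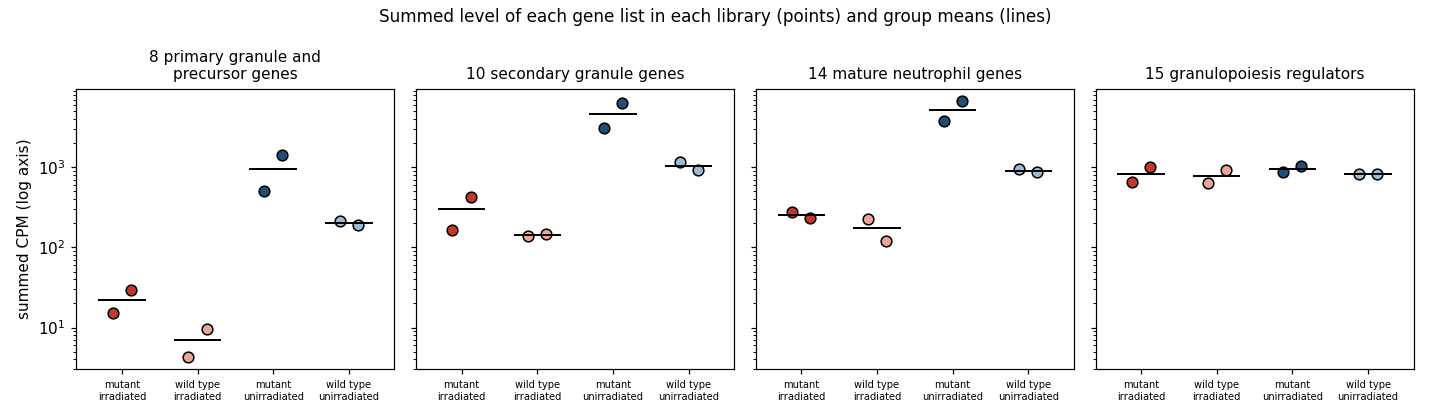
Summed CPM of the 8 genes, of the secondary granule and mature neutrophil lists and of the regulators in each library (points) with group means (lines), on a log axis, with the groups in the order irradiated mutant, irradiated wild type, unirradiated mutant and unirradiated wild type. The 8 genes sum to 509 and 1408 CPM in unirradiated mutants and 213 and 190 CPM in unirradiated wild type, and to 4.33 to 29.3 CPM in irradiated spleens.

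Markers of other cell types also differed between the groups. In unirradiated spleens the B cell markers summed to 1704 and 1741 CPM in mutants, against 2605 and 3395 CPM in wild type, with 5 of 5 markers lower. The T cell markers summed to 255 and 231 CPM in mutants, against 283 and 374 CPM in wild type. Monocyte markers summed to 630 and 750 CPM in mutants, against 390 and 385 CPM in wild type, with 4 of 4 markers higher. Proliferation genes summed to 2246 and 1884 CPM in mutants, against 1949 and 1283 CPM in wild type, which overlap. Erythroblast markers summed to 2962 and 2288 CPM in mutants, against 3531 and 3016 CPM in wild type, with 5 of 6 markers lower. Basophil and mast cell markers summed to 20.2 and 29.7 CPM in mutants, against 16.9 and 13.9 CPM in wild type, with 5 of 5 tested markers higher. Neither of these sums overlapped between the genotypes.

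In irradiated spleens the B cell markers summed to 71.1 and 849 CPM in mutants and 493 and 1040 CPM in wild type. Erythroblast markers summed to 18842 and 1517 CPM in mutants and 10006 and 7547 CPM in wild type. Red pulp macrophage markers summed to 3353 and 2490 CPM in mutants and 1120 and 1509 CPM in wild type, with no overlap between the groups. Monocyte markers summed to 312 and 470 CPM in mutants and 136 and 222 CPM in wild type, also without overlap, with 4 of 4 markers higher in mutants. Hepatocyte markers reached 426 and 48.1 CPM in mutants and 77.1 and 85.7 CPM in wild type, beside at most 0.884 CPM in unirradiated libraries. Adipocyte markers summed to 73.8 and 892 CPM in mutants and 9.82 and 96.8 CPM in wild type. The part of these cell types in the differences of the 8 genes was not tested.

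Genes with the profile most like that of the 8 were found by the root mean square difference of log2 CPM, centred over the 8 libraries, from the mean profile of the group, among 13255 candidates. Cd177, a surface glycoprotein of neutrophils, was nearest at 0.76. It had 0.934 and 1.11 CPM in irradiated mutants, 0.811 and 1.77 CPM in irradiated wild type, 86.8 and 208 CPM in unirradiated mutants and 23.0 and 17.4 CPM in unirradiated wild type. Next came the immunoglobulin segment Ighv1-59 (0.85), whose reads may be shared with near-identical segments, the potassium channel gene Kcnj5 (0.85), the mast cell and basophil protease gene Prss34 (0.89) and Ly6g6f (0.93). These genes after Cd177 held at most 13 counts in each irradiated library. Among them the unirradiated genotypes overlapped only for Ly6g6f, at 5.54 and 12.7 CPM in mutants, against 7.65 and 7.27 CPM in wild type. Of the 8 genes themselves, Ctsg (0.53) and Ms4a3 (0.60) lay closest to the mean profile, followed by Prtn3 (0.69), Mpo (0.72), Elane (0.75), Cebpe (0.94) and Fcnb (1.20), and Gfi1 lay furthest away (2.08).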

How the data were processed

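Libraries for mRNA sequencing were made from 8 spleen samples, and groups and replicate numbers came from the sample titles. The deposited table gave raw read counts per gene in whole numbers, 1 column for each sample. The submitters' processing notes name Trim Galore, Subread and featureCounts and the builds hg38 and mm10. The sources used here give no versions, annotation, strand setting or treatment of reads that map to several places. The labels' growth protocol is about human cells in culture and was not used.

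Symbols and coordinates were taken from GENCODE M21 (GRCm38), in which 52403 of 52636 identifiers were found. The filter was filterByExpr with min.count 10 and min.total.count 15, and 17327 genes passed it. Library sizes were scaled by TMM. All 8 libraries entered 1 model with a coefficient for each group and no replicate block, and contrasts were tested with the quasi-likelihood F test of edgeR 4.0.16 under R 4.3.3. P-values were adjusted by Benjamini-Hochberg over all genes tested, and "called" means an adjusted p under 0.05. An SE is the size of the log2 fold change over the root of its F. The common dispersion was 0.152, with 4 residual degrees of freedom. The script was tested on simulated data. RPKM divides CPM by the summed exon length in kilobases. Intervals on ratios of counts are exact binomial intervals at 95%.

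Alternatives were DESeq2 1.42.0, limma-voom (limma 3.58.1) with and without library weights, RLE and upper-quartile scaling, other filters on low counts, only the 4 libraries of a contrast, a replicate block, and leaving out each library. The 8 genes and the gene lists were chosen with earlier results of these data known. Values are given for the 3 genes of a list with the highest mean CPM or some of these, and for the 5 named genes nearest in profile with a mean of at least 1 CPM. Other genes of a list named as called were chosen after their values were seen. Hp, Csf3r, Gata2, Kit and Cd34 each stand in 2 lists.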

Additional observations from a re-analysis of the deposited data

How the results depend on the processing

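Between unirradiated genotypes the count of the 8 genes called was 0 in the fit of all libraries, 7 with no filter on low counts, 4 with DESeq2, 7 with limma-voom with library weights and 7 on the 4 libraries alone, with 7 to 8 when 1 of those 4 was left out, an alternative chosen after seeing the data, and 0 in the fit of all libraries with any 1 left out. Between irradiated genotypes it was 0, against 4 with no filter and 2 with DESeq2. In the fit of all libraries the share of all genes called rose without either irradiated mutant library. The count of the 8 genes changed only without replicate 1 of these, which leaves 1 library in that group. For irradiation in wild type it was 1, against 8 with no filter, 0 with upper-quartile scaling, 7 with DESeq2, 0 with limma-voom with or without library weights and 7 on the 4 libraries alone, and 0 to 8 with 1 library left out (2 to 8 on the 4 libraries). For irradiation in mutants it was 7, against 8 with no filter, 8 with DESeq2 and 5 with upper-quartile scaling. It was 0 with limma-voom with library weights and on the 4 libraries alone, and changed when 1 library was left out of either fit. The interaction count was 0 under every alternative run.

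The direction of the genotype and irradiation differences was kept by every gene with a value under every alternative run, except Gfi1 between irradiated genotypes. With 1 library left out it ran from -0.91 to 1.17, and its negative values, -0.91 and, on the 4 libraries, -0.86, came without irradiated mutant replicate 2. Interaction signs were less stable. Ctsg turned to 0.75 with limma-voom and 0.74 with library weights, and ran from -1.06 to 5.14 with 1 library left out. With 1 left out, Elane ran from -0.66 to 6.53 (the highest values of both leave irradiated wild type at 0 counts) and Gfi1 from -1.80 to 0.29. The cause was not tested.

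A replicate block called 3 of the 8 genes (Mpo, Prtn3 and Ms4a3) for irradiation in wild type and moved no other count, with Ctsg at 0.051 in the interaction. For irradiation in wild type the block called 0.0923% of all genes in either direction, against 0.0577% without it. Libraries with equal numbers share only a number: the correlations of their deviations ran from 0.03 to 0.47 over the 6 pairs of groups. In the irradiated comparisons the genes other than Gfi1 held at most 165 counts in a library.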
